A study of Mus musculus with 34 samples.

Results

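Cytosolic ribosomal protein genes were followed across 34 poly(A) RNA-seq libraries of organoids from mouse colon tumours. Organoids are epithelial cells grown as small 3-dimensional bodies, and all groups carried the genotype labelled AKP. Members were protein-coding genes with an Rpl or Rps symbol followed by digits and at most a short ending, together with Rplp0, Rplp1, Rplp2 and Rpsa. Pseudogene symbols and the S6 kinase genes were left out. This gave 83 genes of the 54354 in the table, 51 named for the large (60S) subunit and 32 for the small (40S) subunit. Values play no role in this choice.

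The 5 groups were clone2 and clone1, which are Degs1 knockout lines made with a CRISPR ribonucleoprotein (9 libraries each), Scrambled, the control line of that experiment (3 libraries), shYAP, with a hairpin against Yap1 (3 libraries), and shControl, with a control hairpin (10 libraries). Clone1, clone2 and Scrambled were each a single line, and the labels did not say whether replicates came from separate cultures, so n counts libraries and p-values measure only the spread between them, which may be technical.

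A cytosolic ribosome is built from ribosomal RNA and a single copy of most ribosomal proteins, made in near-equal amounts. The small subunit decodes the mRNA. The large subunit joins the amino acids and carries a flexible stalk of Rplp0, Rplp1 and Rplp2 that recruits elongation factors. Most of these mRNAs begin with a 5′ terminal oligopyrimidine tract (TOP), a C followed by further C and T letters at the transcription start, through which mTORC1 and LARP1 control their translation and stability. Mammalian genomes also carry many processed copies of these genes, so a read can match a member and its copies equally well.

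The annotated transcription starts show this tract in some members and not in others. The windows below hold 15 bases before the RefSeq start and 15 from it on, with the unbroken run of C and T letters across the start in capitals. They were taken from build GRCm38.p6 and were chosen for members that the comparisons turn on.
Rplp2: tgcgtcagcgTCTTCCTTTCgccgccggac
Rplp0: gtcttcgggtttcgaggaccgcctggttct
Rps2: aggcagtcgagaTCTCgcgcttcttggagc
Rps6: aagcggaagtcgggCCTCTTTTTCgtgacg
Rps18: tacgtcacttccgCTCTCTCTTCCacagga
Rpl35: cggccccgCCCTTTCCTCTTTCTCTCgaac
These windows lie at chr7:141447636-141447665 (plus strand), chr5:115559452-115559481 (plus), chr17:24720048-24720077 (plus), chr4:86857353-86857382 (minus), chr17:33955651-33955680 (minus) and chr2:39005117-39005146 (minus). Starts were found for 63 members. In 13 of them, 20.6%, the start was a C followed by 4 letters that were each C or T, read on the gene's own strand, against 3.01% of 27025 gene symbols with a start. The annotated start of Rplp0 was a G, and in Rps2 the run of pyrimidines ended at the start, which says only that these letters are not there in this annotation.

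Copies of the members were searched by sequence, because they decide how reads were shared out. Of 615 annotated genes that matched a member's coding sequence over at least 80% of its length with at least 95% identity, 577 had counts. Some copies differ from the member by a single base, as the following stretches of coding sequence show, with the differing letters in capitals and positions counted from the first base of the start codon.
Rpl35: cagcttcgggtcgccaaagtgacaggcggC
Gm2000: cagcttcgggtcgccaaagtgacaggcggT
Rpl9: catgatcaagggtgtcacgctgggcttccG
Rpl9-ps6: catgatcaagggtgtcacgctgggcttccA
Rpl36a: gaaagcGgcgTtaCgacaggaaacagagtG
Rpl36a-ps1: gaaagcAgcgCtaTgacaggaaacagagtA
Rpl35 and Gm2000 (chr1:156366040-156366484, mm10) differ over the whole coding sequence only by C117T, and Rpl9 and Rpl9-ps6 only by G266A. Between Rpl36a and Rpl36a-ps1, 7 coding bases differ, of which G116A, T120C, C123T and G139A lie in the stretch shown. Rpl10 and Rpl10-ps3 (chr9:50344201-50344968) are identical over 642 coding bases, and Rpl5 and Gm15500 over 891.

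Library totals ran from 883253 counts in clone1 replicate 2 to 6597099 in a clone2 library. Summed markers of epithelium (8 genes, none at 0 in any group) ranged from 1753 to 3522 CPM over libraries, those of immune cells (6 genes, 2 to 4 at 0) from 11.6 to 40.9 CPM, those of stroma (6 genes, 3 to 6 at 0) from 0 to 1.18 CPM and those of endothelium (3 genes, 2 at 0) from 0 to 3.12 CPM. The immune sums were nearly all Cd68. CPM are counts relative to the effective library total, scaled by TMM. Degs1 averaged 1.71 ± 0.893 CPM in clone2 and 2.41 ± 1.32 CPM in clone1 (SD, n = 9 each), against 7.74 ± 2.62 CPM in Scrambled (n = 3). Yap1 averaged 19.1 ± 1.13 CPM in the libraries labelled shYAP (n = 3) and 16.6 ± 4.14 CPM in shControl (n = 10), a log2 difference of 0.20 (adjusted p = 0.619). Yap1 mRNA thus went against that label, and each direction below rests on the label alone.

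Libraries fell into 2 sets by how reads were shared between members and copies. In 11 libraries, shControl replicates 1 to 4 and clone2 replicates 3 to 9, copies held 1.709% to 2.046% of all counts, against 1.279% to 1.488% in the other 23. The 11 libraries were told apart after the values had been seen, and the limit between the sets was put at 1.6%. In shControl the boundary fell where the library numbers in the labels skip, and in clone2 it fell within an unbroken run of numbers. Scrambled, clone1 and shYAP had no library among the 11. Where these groups are compared with clone2 or shControl, the counts of members called are therefore given with and without them, as are those of part of the lists. Counts of members whose libraries do not overlap, counts by pyrimidine tract and the remaining lists are given only with the 11 libraries included.

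The sharing differed gene by gene. For 19 of the 80 members tested, every one of the 11 libraries gave a larger part of the summed counts of member and copies to the copies than any of the 23, and for 7 every one gave a smaller part. Copies of Rpl15 took 21.24 to 36.9% of the sum in the 11 libraries, against 0.108 to 2.53% in the 23. For Rpl5, whose protein binds 5S ribosomal RNA and, outside the ribosome, Mdm2, these shares were 54.6 to 63.6% and 12.6 to 26.1%. For Rpl12, a protein of the stalk base, they were 32.01 to 44.5% and 3.68 to 14.4%. Rpl35, at the rim of the exit tunnel, went the other way, with 50.8 to 56.4% on copies in the 11 libraries and 66.7 to 69.8% in the 23. Rpl9 (50.6 to 61.6% and 72.2 to 77.7%), Rpl36a (10.1 to 14.5% and 29.2 to 38.1%) and Rps2 (31.8 to 39.2% and 50.5 to 55.8%) behaved like Rpl35. The 11 libraries were set apart by these same counts on copies. These shares therefore describe the split, in members of both subunits, and are no separate support for it. The cause was not tested.

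Members together took 21.8 ± 1.19% of counts in clone2 (SD, n = 9), 20.1 ± 0.512% in clone1 (n = 9), 21.8 ± 1.08% in Scrambled (n = 3), 21.5 ± 0.416% in shYAP (n = 3) and 22.4 ± 0.800% in shControl (n = 10). Single libraries ranged from 19.3% to 24.1%. Clone1 libraries lay between 19.3% and 20.9%, and the lowest Scrambled library held 20.8%, so these groups overlapped narrowly. In the 11 libraries the share ranged from 20.8% to 24.1%, and in the others from 19.3% to 22.9%, so these sets overlapped.

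**Figure D1:**
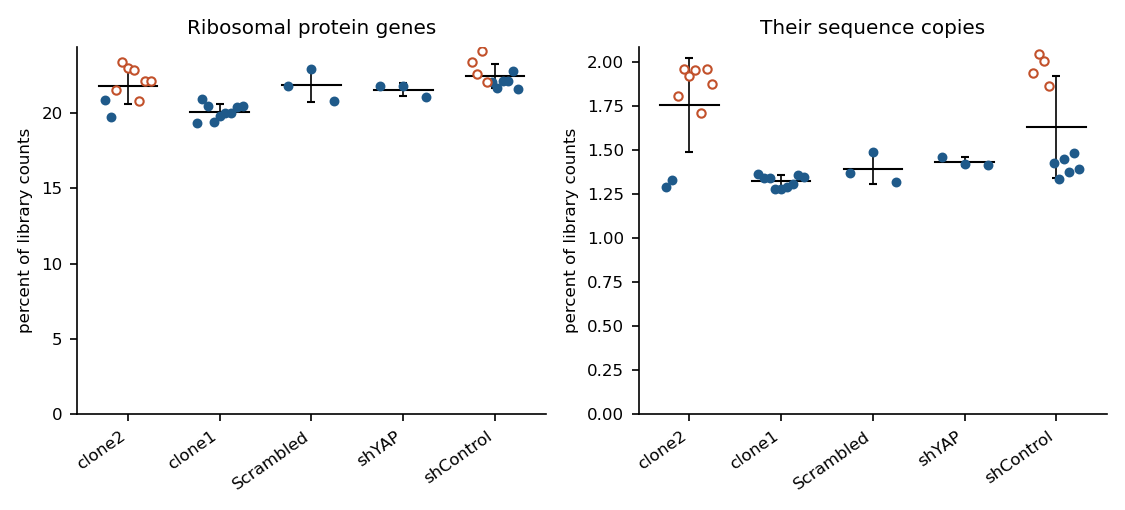
Percent of library counts on the 83 ribosomal protein genes (left) and on their 577 sequence copies with counts (right), each point 1 library, grouped as clone2, clone1, Scrambled, shYAP and shControl, with bars for mean ± SD. Open orange circles are the 11 libraries with copies above 1.6% (1.709% or more), and the other 23 lie at 1.488% or less. On the left the 9 clone1 libraries lie lowest as a group, at 19.3% to 20.9%.

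Per kilobase of coding sequence, members differed by orders of magnitude. Rpl41, which encodes the shortest ribosomal protein and has only 75 coding bases, averaged 160867 CPM per kilobase over the 5 group means. Rps14 followed with 24324 and Rps18 with 19099 CPM per kilobase. The divisor leaves out untranslated bases, whose reads are counted too. Before division Rpl41 averaged 12065 CPM and Rps14 11019 CPM, so most of the gap between these members lies in the divisor. Rps2 had 454, Rpl7l1 had 248 and Rpl10 had 130 CPM per kilobase. Adding the counts of copies brought Rpl10 to 4308 CPM per kilobase, since Rpl10 itself held 3.108% of the summed counts, and Rps2 to 902. Rpl10 and Rpl10-ps3 cannot be told apart by reads within their coding sequence.

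Of the members named after another, those with restricted tissue use were not seen here. Rpl10l and Rpl39l, which in mouse belong to male germ cells, had 0 counts in 155522120 over all libraries, which allows up to 0.0193 CPM for counting error alone. Rpl3l, a heart and skeletal muscle form of Rpl3, had 8 counts in all. The other 80 members passed the filter on low counts in every comparison. Rpl22l1, the paralogue that in mouse rises when Rpl22 is lost, was detected beside Rpl22 in all 34 libraries, with means ± SD of 717 ± 153 CPM in clone2, 744 ± 52.6 in clone1, 863 ± 104 in Scrambled, 412 ± 25.9 in shYAP and 742 ± 104 in shControl. Rps27l, a p53-responsive relative of Rps27, ranged from 737 to 812 CPM in clone2, 520.4 to 695 in clone1, 745 to 766 in Scrambled, 885 to 928 in shYAP and 612 to 1017 in shControl.

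Spread within groups also differed by member. The coefficient of variation had a median over members of 15.5% in clone2, 9.8% in clone1, 11.2% in Scrambled, 8.59% in shYAP and 13.6% in shControl. Rps24, averaged over the groups, varied most, at 40.5%, and Rps16 least, at 5.58%. In shControl, Rps24 ranged from 1343 to 6067 CPM with a median of 1716 CPM, its highest library being replicate 2, and in clone1 from 1159 to 5199 CPM with a median of 1371 CPM, its highest being replicate 6. No difference between groups in Rps24 passed the threshold.

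Within clone2, replicates 3 to 9 stood above replicates 1 and 2 by a median log2 ratio of 0.38 over members, and within shControl replicates 1 to 4 stood above 5 to 10 by 0.12. Among members, 40 lay higher in every one of clone2 replicates 3 to 9 than in replicates 1 and 2, and 3 lay lower. For shControl, 16 lay higher in every one of replicates 1 to 4 than in any of 5 to 10, and 3 lay lower. Both groups shared 14 of the higher members and 2 of the lower ones, Rpl5 and Rpl12. Such libraries were not counted over all genes, so these counts do not set members apart from other genes. Rpl4, which lines the exit tunnel, had 2222 to 2878 CPM in clone2 replicates 3 to 9, against 1392 and 1260.3 CPM in replicates 1 and 2. In shControl, Rpl4 had 2462 to 2667 CPM in replicates 1 to 4, against 1247 to 1462 CPM in 5 to 10. Rps6, the substrate of S6 kinase, had 3749.8 to 5125 CPM, against 2346 and 2266 CPM, in the same clone2 sets and 4307 to 4508 CPM, against 2243 to 2810.4 CPM, in the same shControl sets. These libraries did not overlap within either group. Across the 80 members the log2 ratios in both groups had a Pearson r of 0.547 and a Spearman rho of 0.552, as a description across genes that share the same libraries and the same copies.

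**Figure D2:**
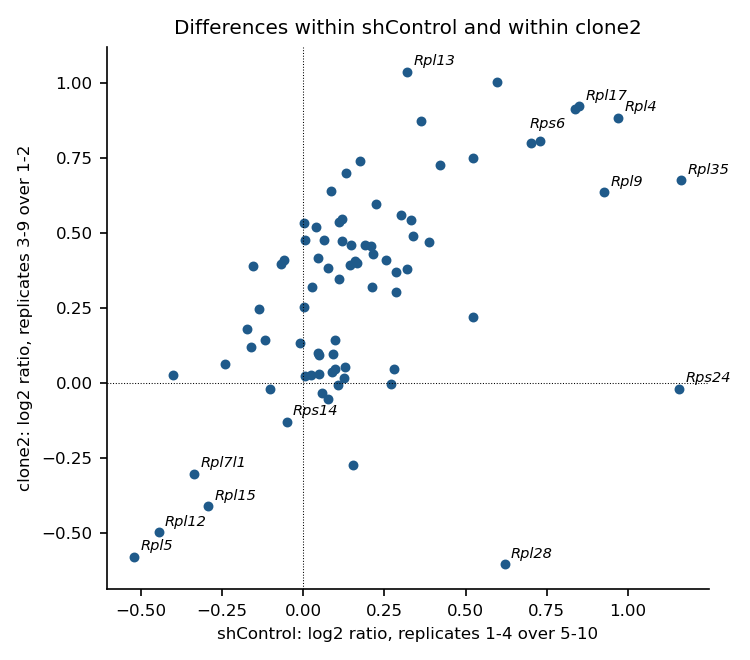
Log2 ratio of mean CPM for each of 80 members, in shControl (replicates 1 to 4 over 5 to 10, horizontal) and in clone2 (replicates 3 to 9 over 1 to 2, vertical), with dotted lines at 0. Rpl35, Rpl4, Rpl17, Rpl9 and Rps6 lie high on both axes and Rpl5, Rpl12 and Rpl15 low on both.

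Each comparison between groups was made with edgeR's quasi-likelihood test over all genes, p-values being adjusted by Benjamini-Hochberg and called at 0.05. Fold changes are log2 values, given with their standard error. In these bulk samples, fewer cells of a type and less RNA per cell cannot be told apart.

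**Figure D3:**
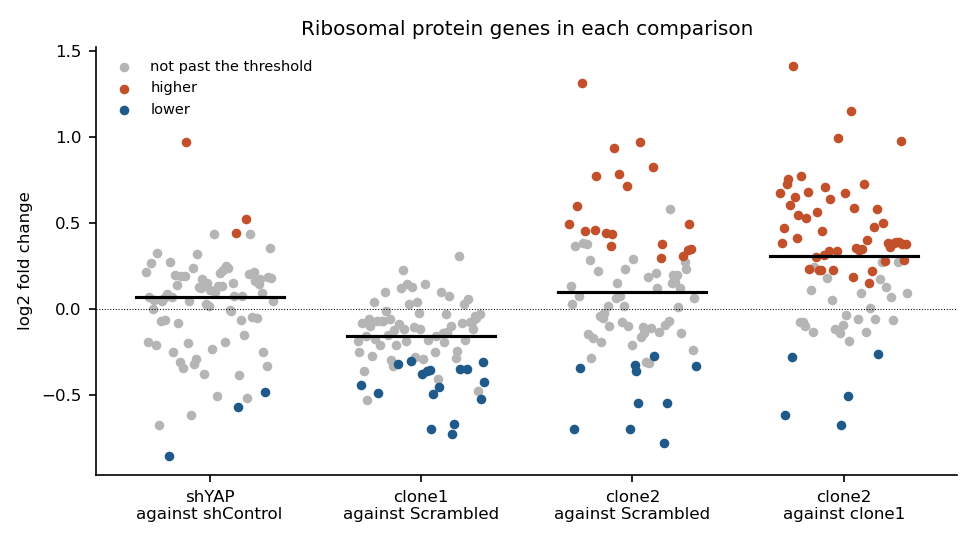
Log2 fold change of the 80 tested members (points, spread sideways by name) in 4 comparisons, coloured by whether a member was higher or lower past the threshold or not past it, with a bar at the median. The medians are 0.07 for shYAP, -0.15 for clone1 against Scrambled, 0.10 for clone2 against Scrambled and 0.31 for clone2 against clone1.

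In clone1, ribosomal protein genes that moved were lower than in Scrambled, led by Rps2, the stalk gene Rplp1 and the small-subunit gene Rps20. Of 80 members, 17 were lower and 0 higher by edgeR, against 12.7% of all genes called in either direction, 6.71% lower and 5.96% higher. At an unadjusted p under 0.05, 25 were lower and 0 higher, and DESeq2 and limma also called 0 higher. The median change was -0.15, against 0.03 over all genes, and 9 of 48 large-subunit and 8 of 32 small-subunit members were lower. Neither group held any of the 11 libraries, although clone2 shared the fit and its estimate of the spread. Summed epithelial markers were at 2725 to 3522 CPM in clone1, against 2362 to 2668 CPM in Scrambled, and immune markers at 22.8 to 28.7 CPM in clone1, against 31.5 to 38.2 CPM in Scrambled. Within the epithelial sum, Krt8, Krt19, Epcam, Cdh1 and Cldn7 had higher means in clone1. Means were lower there for Krt18 (452 against 518 CPM), Vil1 (85.9 against 95.7 CPM) and Cdx2 (8.84 against 10.6 CPM). Mitochondrial mRNA took 2.95 to 3.87% of counts in clone1, against 2.265 to 2.722% in Scrambled. The ranges of the epithelial sum, the immune sum and mitochondrial mRNA did not overlap between the groups, and their part in the lower members was not tested.

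The 3 stalk genes were all lower in clone1. Rplp1 (ENSMUSG00000007892, chr9:61913284-61914542) ranged from 1226 to 1967 CPM with a median of 1568 CPM in the 9 clone1 libraries, against 2437, 3335 and 2033 CPM in Scrambled. No clone1 library reached the lowest Scrambled one, and the log2 change was -0.70 ± 0.14 (adjusted p = 0.00108). Rplp2 (ENSMUSG00000025508, chr7:141447370-141451585) ranged from 1073 to 1627 CPM with a median of 1457 CPM in clone1, against 1943, 2246 and 1646 CPM in Scrambled, a change of -0.49 ± 0.13 (adjusted p = 0.0128). Its groups did not overlap either. Rplp0 (ENSMUSG00000067274, chr5:115559467-115563727) ranged from 4894 to 6044 CPM with a median of 5725 CPM in clone1, against 7207, 7566 and 6757 CPM in Scrambled, a change of -0.35 ± 0.09 (adjusted p = 0.00518), again without overlap.

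Among small-subunit genes, Rps20 (ENSMUSG00000028234, chr4:3831334-3835665) ranged from 393 to 773 CPM with a median of 523 CPM in clone1, against 862, 1031 and 679.9 CPM in Scrambled, a change of -0.67 ± 0.15 (adjusted p = 0.00375). Here clone1 replicate 2 lay above the lowest Scrambled library. Rpsa (ENSMUSG00000032518, chr9:120127689-120132369), which encodes the small-subunit protein also described as a laminin receptor, ranged from 1514 to 2107 CPM with a median of 1668 CPM in clone1, against 2286, 2711 and 1955 CPM in Scrambled, a change of -0.42 ± 0.10 (adjusted p = 0.00499) with overlap by clone1 replicate 2. Rps2, which shares its reads with copies, ranged from 252 to 378 CPM with a median of 327 CPM in clone1, against 475, 745 and 389.9 CPM in Scrambled, a change of -0.73 ± 0.19 (adjusted p = 0.0117). Scrambled replicate 2 stood highest of the 3 in each of these genes. With copies added, Rps2 changed by -0.72 (adjusted p = 0.000176).

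Rpl22 (ENSMUSG00000028936, chr4:152325742-152334071), a large-subunit protein that is dispensable for most translation, ranged from 633 to 979 CPM with a median of 784 CPM in clone1, against 1092, 1304 and 981 CPM in Scrambled, a change of -0.49 ± 0.12 (adjusted p = 0.00404) with no overlap. Its paralogue Rpl22l1 had a log2 fold change of -0.21 ± 0.13 (adjusted p = 0.335), which did not pass. Rps27l changed by -0.35 ± 0.09 (adjusted p = 0.00682), its clone1 libraries all below Scrambled. Other members past the threshold were Rpl11 (-0.44), Rps13 (-0.46), Rpl7 (-0.38), Rpl8 (-0.36), Rps25 (-0.35), Rpl31 (-0.32), Rps9 (-0.31) and Rpl37a (-0.30). In all, 10 members had every clone1 library below every Scrambled library, and 1, Rpl35, every one above, where 5.8% and 4.95% of all genes did so.

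The number of calls rested on Scrambled replicate 2: without it 2 members passed, among them Rplp1 at -0.47 (adjusted p = 0.0476), and Rplp0 and Rps20 stood at -0.30 (adjusted p = 0.067) and -0.51 (adjusted p = 0.0709). Runs of neighbouring libraries were a grouping set from these values and not given by the labels. With them as a random block, 3 passed, Rplp0 and Rplp1 among them. With shControl replicates 5 to 10 in place of Scrambled, 19 were lower, 14 of them among the 17.

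**Figure D4:**
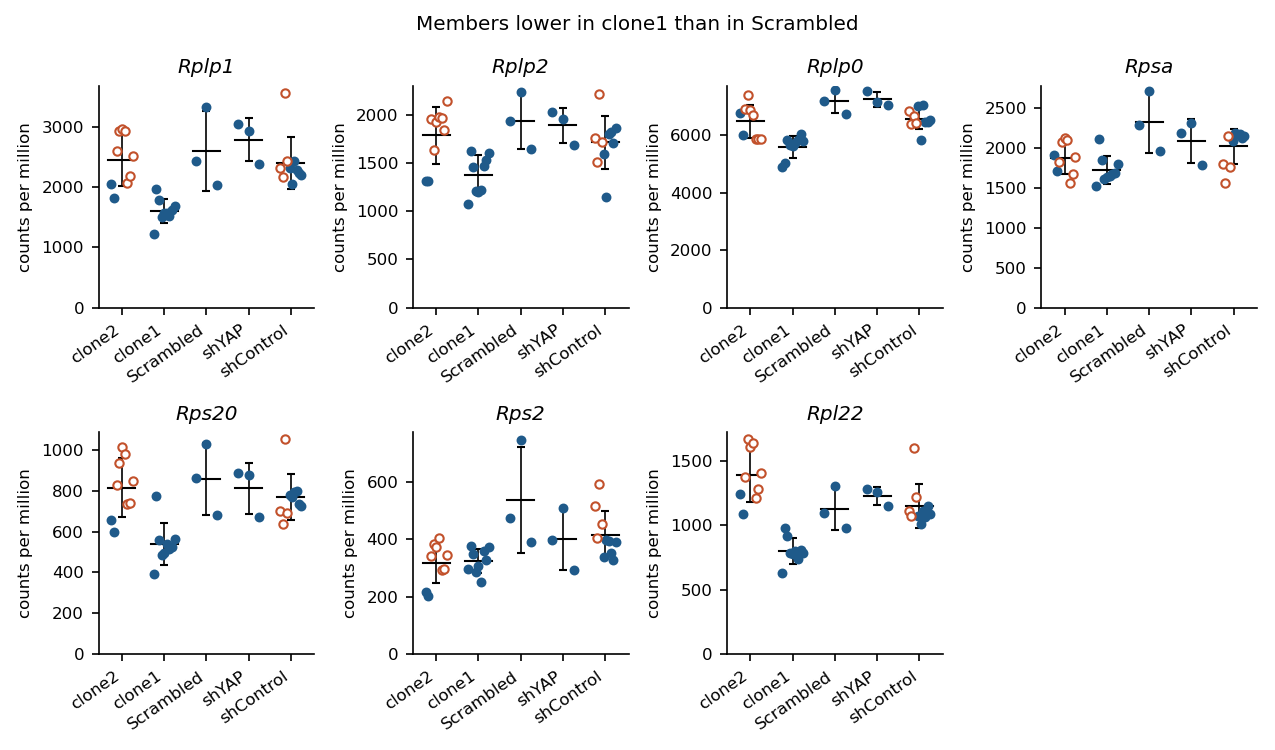
CPM of Rplp1, Rplp2, Rplp0, Rpsa, Rps20, Rps2 and Rpl22 in each library, grouped as clone2, clone1, Scrambled, shYAP and shControl, with bars for mean ± SD and open orange circles for the 11 libraries with copies above 1.6%. In clone1 Rplp1 lies at 1226 to 1967 CPM, below the Scrambled libraries at 2033 CPM and above, and Scrambled replicate 2 is the highest Scrambled library in every panel.

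In clone2, members moved in both directions, with Rpl17, Rpl9, Rpl35 and Rps14 highest and Rps2, Rpl12, Rpl5, Rps21 and Rpl8 lowest relative to Scrambled. Of 80 members, 20 (25%) were higher and 10 (12.5%) lower, against 16.5% and 16.6% of all genes. The 37.5% of members called stand near the 33.1% of all genes called. The median change was 0.10, against -0.03 over all genes. By subunit, 13 of 48 large-subunit members were higher and 6 lower, and 7 of 32 small-subunit members were higher and 4 lower. Mitochondrial mRNA took 2.92 to 3.64% of counts in clone2, against 2.265 to 2.722% in Scrambled, and summed immune markers were at 17.5 to 31.46 CPM in clone2, against 31.47 to 38.2 CPM in Scrambled. This immune sum was nearly all Cd68, which overlapped, at 17.5 to 31.46 CPM in clone2 and 31.0 to 38.2 CPM in Scrambled. The part of mitochondrial mRNA and of these markers in the changes was not tested.

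Rps14, a small-subunit protein whose haploinsufficiency impairs red cell formation in humans, was higher in every clone2 library. It ranged from 14272 to 19333 CPM with a median of 16513 CPM in clone2, against 9306, 9351 and 8919.8 CPM in Scrambled, a change of 0.83 ± 0.10 (adjusted p = 3.99e-08). Clone2 replicates 1 and 2, at 18860.1 and 16513 CPM, and replicates 3 to 9, at 14272 to 19333 CPM, lay alike above every library of the other 4 groups. With only replicates 1 and 2 of clone2 the change was 0.95 (adjusted p = 6.62e-07).

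Rpl17, an exit-tunnel protein, ranged from 3158 to 7372 CPM with a median of 6106 CPM in clone2, against 2288, 2438 and 2075 CPM in Scrambled, a change of 1.31 ± 0.19 (adjusted p = 1.09e-05). Replicates 1 and 2 had 3560.2 and 3158 CPM and the others 5614 to 7372 CPM, all above Scrambled. With only replicates 1 and 2 the change was 0.57 (adjusted p = 0.00121). Rpl3 (ENSMUSG00000060036, chr15:80077791-80091868), which reaches toward the peptidyl transferase centre, ranged from 5078 to 6489 CPM with a median of 5668 CPM in clone2, against 4206, 4212 and 4164 CPM in Scrambled, a change of 0.44 ± 0.09 (adjusted p = 0.000219) and of 0.39 with replicates 1 and 2 alone. Its clone2 libraries did not overlap with Scrambled or clone1.

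Rpl35 ranged from 1655 to 3762 CPM with a median of 2627 CPM in clone2, against 1413, 1275 and 1418 CPM in Scrambled, a change of 0.93 ± 0.15 (adjusted p = 1.13e-05). All clone2 libraries lay above Scrambled, and the change was 0.41 with replicates 1 and 2 alone and 0.48 with Gm2000 and other copies added. Rpl9, near the stalk base, ranged from 405 to 1252 CPM with a median of 1073 CPM in clone2, against 507, 563 and 486 CPM in Scrambled, a change of 0.97 ± 0.20 (adjusted p = 0.000826). Clone2 replicate 1 alone lay below Scrambled, and with copies added the change was 0.15 (adjusted p = 0.452).

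The lower members Rpl5 and Rpl12 were not past the threshold when copies were added. Rpl5 (ENSMUSG00000058558, chr5:107900502-107909005) ranged from 406 to 696 CPM with a median of 477 CPM in clone2, against 773, 849.7 and 736 CPM in Scrambled, a change of -0.70 ± 0.12 (adjusted p = 2.32e-05). With Gm15500 and its other copies the change was 0.17 (adjusted p = 0.278), in the opposite direction, and with clone2 replicates 1 and 2 alone it was -0.24 (adjusted p = 0.205). Rpl12 ranged from 321 to 598 CPM with a median of 443 CPM in clone2, against 685, 813 and 619 CPM in Scrambled, a change of -0.70 ± 0.13 (adjusted p = 7.9e-05). It became -0.21 (adjusted p = 0.152) with copies and -0.31 (adjusted p = 0.153) with replicates 1 and 2 alone.

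Rpl8 (ENSMUSG00000003970, chr15:76904078-76906314), a core protein beside the peptidyl transferase centre, ranged from 1379.6 to 2120.4 CPM with a median of 1829 CPM in clone2, against 2562, 2956 and 2156 CPM in Scrambled, a change of -0.55 ± 0.11 (adjusted p = 0.000213) without overlap. Rps21 ranged from 863 to 1086 CPM with a median of 956 CPM in clone2, against 1344, 1636 and 1185 CPM in Scrambled, a change of -0.55 ± 0.11 (adjusted p = 0.000171), also without overlap. Rps2 ranged from 203 to 404 CPM with a median of 341 CPM in clone2, with 1 library above the lowest Scrambled value of 389.9 CPM, a change of -0.78 ± 0.19 (adjusted p = 0.00233), and of -1.13 with copies. Rps2, Rpl8 and Rpsa were the only members called in both clones against Scrambled, lower in each, and no member was called in opposite directions. Both comparisons share the 3 Scrambled libraries.

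The remaining higher members included Rpl24 (0.78), Rpl36a (0.78), Rpl4 (0.72), Rpl13a (0.60), Rps6 (0.50), Rpl10 (0.49), Rpl23a (0.46), Rpl34 (0.44), Rps19 (0.38), Rpl32 (0.37), Rps7 (0.35), Rps3 (0.31) and Rps18 (0.29). The remaining lower ones were Rpl7l1 (-0.36), Rpl15 (-0.34), Rpl7a (-0.33), Rpsa (-0.33) and Rps15 (-0.27). Clone2 libraries lay wholly above Scrambled in 8 members and wholly below in 5, where 12.6% and 12% of all genes did so.

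With clone2 replicates 1 and 2 alone, 5 members were higher and 14 lower, against 16.4% of all genes called, and 9 of the 30 calls were shared, those of Rpl17, Rpl3, Rpl34, Rpl35, Rps14, Rpl7a, Rpl8, Rps2 and Rps21. Scaling to the library total alone gave 11 higher and 29 lower and moved the median of all genes to -0.24, so the balance of directions in clone2 follows the scaling.

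**Figure D5:**
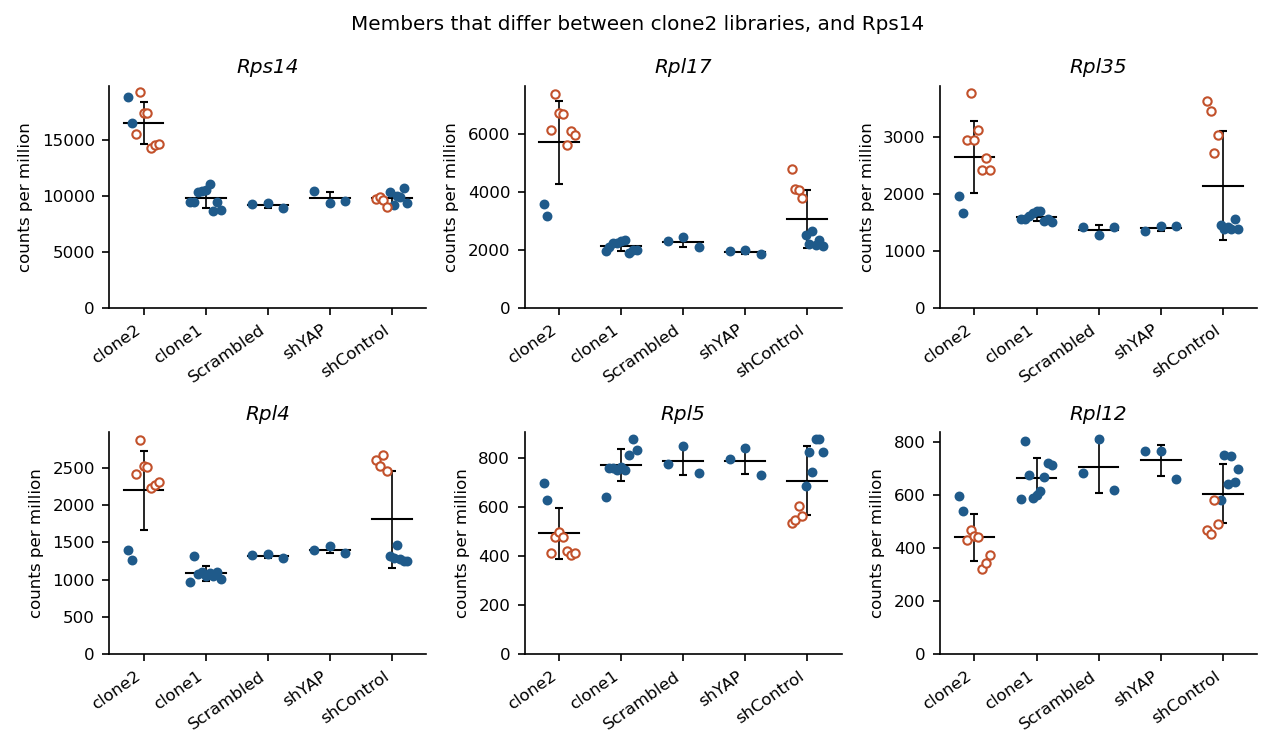
CPM of Rps14, Rpl17, Rpl35, Rpl4, Rpl5 and Rpl12 in each library, grouped as clone2, clone1, Scrambled, shYAP and shControl, with bars for mean ± SD. Open orange circles, the 11 libraries with copies above 1.6%, stand apart from the others of clone2 and of shControl in every panel but that of Rps14, narrowly for Rpl12 in shControl (580.8 CPM at most, against 581.6 CPM at least in the others). For Rps14, all clone2 libraries lie at 14272 CPM or above and no other library exceeds 11084.

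Clone2 and clone1 carry the same knockout, and the 9 libraries of each were compared with each other. In clone2, 50 of 80 members (62.5%) were higher than in clone1 and 5 (6.25%) lower, against 23.6% and 25.5% of all genes. The median change was 0.31, against -0.05 over all genes. Largest were Rpl17 (1.41), Rpl9 (1.15), Rpl4 (0.997) and Rps6 (0.97). Over 17 alternatives, Rpl17 ranged down to 0.68, Rpl9 to 0.38, Rpl4 to 0.30 and Rps6 to 0.26. Of these, Rps6 was not past the threshold in 1 alternative, and the others were past it in each. The 5 lower members were Rpl5 (-0.67), Rpl12 (-0.62), Rpl7l1 (-0.51), Rpl15 (-0.28) and Rps21 (-0.26). Adding copies reversed Rpl5 to 0.16 and Rpl15 to 0.18, and Rpl12 ranged up to -0.13 over the alternatives.

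In 8 members every clone2 library lay above every clone1 library (7.28% of all genes), among them Rpl17, Rpl22, Rpl3, Rps14, Rps19, Rps27l and Rps6. Rpl22 ranged from 1086 to 1669 CPM with a median of 1375 CPM in clone2, against 633 to 979 CPM with a median of 784 CPM in clone1, a change of 0.77 ± 0.09 (adjusted p = 1.76e-09). Rps27l ranged from 737 to 812 CPM with a median of 770.4 CPM in clone2, against 520.4 to 695 CPM with a median of 602 CPM in clone1, a change of 0.36 ± 0.06 (adjusted p = 1.56e-05). Both members separate the clones in replicates 1 and 2 of clone2 as well, with changes of 0.55 and 0.36 that passed the threshold.

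The stalk genes were also higher in clone2 than in clone1, with 0.59 for Rplp1, 0.35 for Rplp2 and 0.19 for Rplp0. With replicates 1 and 2 alone these were 0.28 (adjusted p = 0.193), -0.05 (adjusted p = 0.846) and 0.21 (adjusted p = 0.136). In all, 16 members then passed, 12 higher and 4 lower, 11 of them among the 55, against 18.8% of all genes. The median change of members was then 0.07, against -0.04 over all genes. Scaling to the library total alone left 29 higher and 21 lower, with a median of all genes of -0.27.

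In the libraries labelled shYAP, few members moved. Of 80 members, 3 (3.75%) were higher and 3 (3.75%) lower than in shControl, against 5.47% and 5.9% of all genes. The median change was 0.07, against -0.05 over all genes. The higher members included Rpl31, at the exit tunnel rim, and Rps23, of the decoding centre, and the lower ones Rpl22l1 and Rps18.

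Rpl22l1 (ENSMUSG00000039221, chr3:28805436-28807424) had 425, 429 and 383 CPM in shYAP and ranged from 612 to 953 CPM with a median of 716 CPM in shControl. No shYAP library reached the lowest shControl one, and the change was -0.85 ± 0.14 (adjusted p = 0.000512). Rpl22 itself had 1279.6, 1257 and 1149.8 CPM in shYAP and 1008 to 1604 CPM with a median of 1100.0 CPM in shControl, a change of 0.09 ± 0.13 (adjusted p = 0.712).

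Rps18 (ENSMUSG00000008668, chr17:33951999-33956001), of the head of the small subunit, had 6091, 6149 and 6031 CPM in shYAP and 7985 to 11379 CPM with a median of 8723 CPM in shControl, a change of -0.57 ± 0.11 (adjusted p = 0.00249). The groups did not overlap.

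Rps23 (ENSMUSG00000049517, chr13:90922958-90924950) had 3899.8, 3969.6 and 4544 CPM in shYAP and 2275 to 3444 CPM with a median of 2874 CPM in shControl, a change of 0.52 ± 0.12 (adjusted p = 0.00846) without overlap. Rpl31 (ENSMUSG00000073702, chr1:39367842-39371911) had 1980.0, 1975 and 4672 CPM in shYAP and 1318 to 1948 CPM with a median of 1420.2 CPM in shControl, a change of 0.97 ± 0.19 (adjusted p = 0.00224). Its rise rested on shYAP replicate 3, without which it was 0.41 (adjusted p = 0.1).

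Every shYAP library lay above every shControl library in 3 members and below in 5, where 6.08% and 5.26% of all genes did so. Against shControl replicates 5 to 10 alone, which leaves out the 4 shControl libraries among the 11, 16 members passed, 11 higher and 5 lower, including all 6. In that fit 13.9% of all genes were called. Without shYAP replicate 3, and also with the runs as a random block, only Rpl22l1 and Rps18 passed, where 4.46% and 2.69% of all genes were called. The number of members that moved thus depended on the libraries and the model used.

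The 2 controls, Scrambled and shControl, differed in 1 member (1.25%), which was higher, against 2.95% of all genes in either direction and 1.76% higher. Rpl8 had 2562, 2956 and 2156 CPM in Scrambled and ranged from 1542 to 2203 CPM with a median of 1948 CPM in shControl, a change of 0.41 ± 0.11 (adjusted p = 0.0357). The 2 groups overlapped. No member was lower past the threshold by edgeR, DESeq2 or limma, 3 were at an unadjusted p under 0.05, and against shControl replicates 5 to 10 alone Rpl8 did not pass.

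The effect of the knockout, as the mean of both clones against Scrambled, was then set against that of shYAP over shControl in a fit of all 34 libraries. It differed in 23 of 80 members (28.7%), 9 in the higher and 14 in the lower direction, against 18.8% of all genes. The clones differed from each other in 55 of 80 members and were called alike against Scrambled in 3. The mean of both clones therefore need not hold for either clone. Rpl22l1 and Rps18, lower in shYAP, had differences of 0.61 ± 0.19 (adjusted p = 0.019) and 0.76 ± 0.14 (adjusted p = 9.71e-05). Rpl31 and Rps23, higher in shYAP, had differences of -1.18 and -0.68. Leaving out the 11 libraries gave 37 members, 6 in the higher and 31 in the lower direction, of which 16 were among the 23, against 16.1% of all genes. Rpl22l1 was then at 0.35 (adjusted p = 0.0755), while Rps18 (0.65), Rpl31 (-1.26) and Rps23 (-0.68) were past the threshold.

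Members with and without the pyrimidine tract at their annotated start were counted side by side, over 13 and 47 tested members and with the 11 libraries included. In clone1, 1 of 13 with the tract and 11 of 47 without it were lower than in Scrambled, with median changes of -0.19 and -0.15, where 6.71% of all genes were lower. In clone2, 3 with the tract were higher and 2 lower than in Scrambled, and 10 without it were higher and 7 lower, with medians of 0.06 and 0.12, where 16.5% of all genes were higher and 16.6% lower. In the libraries labelled shYAP, 1 with the tract was lower, 2 without it were higher and 1 lower than in shControl, with medians of -0.05 and 0.08, where 5.47% of all genes were higher and 5.9% lower. The difference between these sets of members was not tested.

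Genes that build the ribosome, and other genes of the pathway, were counted by list. In the libraries labelled shYAP, 11 of 36 genes of 60S maturation were higher than in shControl, with a median of 0.49, among them Noc3l (1.10), Eif6 (1.06), which keeps free large subunits from joining, and Rrs1 (0.90). Of 35 genes of the small subunit processome, which assembles on pre-ribosomal RNA, 7 were higher, with a median of 0.50, among them Rrp9 (1.15), Tsr1 (0.98) and Heatr1 (0.97). Polr1e (0.79) and Rrn3 (0.68) were the 2 higher of 17 genes of RNA polymerase I transcription, and Nolc1 (0.77) and Las1l (0.61) the 2 of 18 nucleolar genes. In these 4 lists 0 genes were lower by edgeR, DESeq2 or limma, and 0 were lower at an unadjusted p under 0.05. The median over all genes was -0.05, and 11.4% of all genes were called. Against shControl replicates 5 to 10 alone, 11 of 35 genes of 60S maturation, 7 of 35 processome genes, 1 of 17 polymerase I genes and 1 of 18 nucleolar genes were higher, where 13.9% of all genes were called. With the runs as a random block in limma, 2 genes of 60S maturation and 0 of the other 3 lists were higher.

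Of 23 other TOP mRNAs, 3 (13%) were lower in the libraries labelled shYAP and 0 higher, with a median of -0.09. These were Pabpc1 (-0.91), the poly(A)-binding protein, Eef1a1 (-0.68), the main elongation factor, and Eif3f (-0.64). Over all genes in this comparison, 5.47% were higher and 5.9% lower. Of the regulators of mTORC1, LARP1 and MYC, 2 of 23 were higher and 2 lower, among them Mycl (-1.999), Mxi1 (-1.20) and Akt1s1 (0.89). Mitochondrial ribosomal proteins numbered 3 higher and 3 lower of 78, with a median of 0.14. None of 8 chaperone and p53-sensing genes and none of 14 quality control genes passed in edgeR, DESeq2 or limma, and 0 of the 8 and 3 of the 14 had an unadjusted p under 0.05. Against shControl replicates 5 to 10 alone, 4 other TOP mRNAs were lower, 1 of 22 regulators was lower, 7 mitochondrial ribosomal proteins were higher and 4 lower, and 1 quality control gene was higher. Of all genes, 13.9% were called in that fit.

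In clone1, 8 of 78 mitochondrial ribosomal proteins were lower than in Scrambled, among them Mrps9 (-0.80), Mrps35 (-0.70) and Mrpl4 (-0.70), with a median of -0.07 over the list, where 6.71% of all genes were lower and 5.96% higher. Of 23 other TOP mRNAs, 3 were lower, Eef1b2 (-0.45), Eef1a1 (-0.44) and Hnrnpa1 (-0.34). The assembly lists moved in few members, with 1 of 35 processome genes lower (Imp3, -0.51), 2 of 36 60S maturation genes higher and 2 lower, 2 of 18 nucleolar genes higher (Wdr36, 0.61, and Nop10, 0.41) and 1 of 16 polymerase I genes in each direction (Ubtf, 0.69, and Taf1b, -1.24). Eif4ebp1 (-0.72), the translation repressor that mTORC1 phosphorylates, and Rps6ka3 (0.59) were the 2 of 23 regulators called, and Nop53 (-0.70) the 1 of 8 chaperone and p53-sensing genes.

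In clone2, each of the 4 assembly lists had more members lower than higher, while the other TOP mRNAs had more higher than lower. Of 35 processome genes 12 were lower than in Scrambled and 2 higher, with a median of -0.32, among them Heatr1 (-1.39) and Nol11 (-1.05). Of 18 nucleolar genes 8 were lower and 1 higher, with a median of -0.57, among them Gar1 (-1.68), of the H/ACA snoRNP, and Nolc1 (-1.17). Of 36 genes of 60S maturation 10 were lower and 3 higher, among them Noc2l (-1.30), and of 16 polymerase I genes 5 were lower and 1 higher, among them Polr1f (-0.74). Of 23 other TOP mRNAs 10 were higher and 3 lower (median 0.31), among them Eif3h (0.93) and Pfdn5 (0.87). The share called over all genes was 33.1%.

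With clone2 replicates 1 and 2 alone, 3 processome and 6 nucleolar genes were lower than in Scrambled, with medians of -0.32 and -0.56, while 5 other TOP mRNAs were higher and 2 lower (median 0.01), where 16.4% of all genes were called. In these 2 libraries 4 genes of 60S maturation were lower and 1 higher, 6 mitochondrial ribosomal proteins were higher and 7 lower, and 1 regulator was higher and 3 were lower. In all 9 clone2 libraries, where 33.1% of all genes were called, 18 of 78 mitochondrial ribosomal proteins were higher and 13 lower, of the regulators 2 were higher (among them Max, 1.01) and 4 lower (among them Deptor, -0.95, and Eif4ebp1, -0.89), of the chaperone and p53-sensing genes Cdkn1a, the p53 target (0.97), was higher and Nop53 (-0.47) lower, and of the quality control genes 1 was higher and 2 were lower.

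Against clone1, clone2 had 14 of 35 processome genes lower and 4 higher, 12 of 18 nucleolar genes lower and 2 higher, 15 of 36 genes of 60S maturation lower and 3 higher, and 15 of 23 other TOP mRNAs higher and 3 lower. Mitochondrial ribosomal proteins were higher in 29 and lower in 13 of 78. Over all genes, 49.1% were called in this comparison. With clone2 replicates 1 and 2 alone, 6 processome genes were lower and 1 higher, 5 nucleolar genes and 5 of 60S maturation were lower, 4 other TOP mRNAs were higher and 1 lower, and 8 mitochondrial ribosomal proteins were higher and 4 lower, where 18.8% of all genes were called.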

How the data were processed

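Expected counts per gene, whole numbers in the deposited table, came from Salmon (version 1.3.0) and build mm10 according to what the authors gave GEO, per the submitters' processing notes. Libraries were poly(A)-selected and strand-specific, per the labels' protocols. How multi-mapping reads were shared and which annotation release was used are not given in the sources used here. Positions came from GENCODE M21, which held all 83 members, and start windows from RefSeq (GRCm38.p6).

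Samples were grouped as labelled. Low genes were removed by filterByExpr (count 10, total 15), normalised by TMM and tested with edgeR 4.0.16 in R 4.3.3 (robust quasi-likelihood, two-sided), in fits of 21 knockout libraries, 13 hairpin libraries and all 34. The common biological coefficient of variation was 0.218, 0.281 and 0.248. Intervals and floors cover counting error or the fitted spread only. Copies were found with blastn 2.17.0 in annotated transcripts. Replicate numbers did not pair libraries (correlations -0.0688 to 0.0764), and no libraries were duplicates. Alternatives used DESeq2 1.42.0 and limma 3.58.1 (log2 CPM, prior count 2). The steps were tested on simulated data.

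The members, gene lists, alternatives and rules were chosen with earlier results of these data known. The rule named the stalk genes, Rpsa and paralogues, up to 4 rises and 4 falls per comparison, members called in both clones, the 3 highest and lowest per kilobase, undetected members and up to 3 genes per list. Other members past a threshold were listed to account for them, some genes that the counts include are not reported here, and Rps24, Rps16, Rps19, Rps9 and the members with large copy shares were chosen after their values were seen. Runs of neighbouring libraries were defined from these values.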

Additional observations from a re-analysis of the deposited data

Results flagged for a closer look

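In groups of 9 or 10 libraries, 13 of 99 sets of values held a library far from the others. A single set would be flagged by chance about 1 time in 20. These sets share the same libraries, so that rate is no reference for their number. Clone1 replicate 2, the shallowest library, was highest in its group for Rpl39 (1683 CPM), Rps27 (3139 CPM), Rps20 (773 CPM) and Rpl4 (1318 CPM), and clone1 replicate 1 was lowest for Rps6 (1594 CPM). Clone2 replicate 1 was lowest for Rpl9 (405 CPM).

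In shControl, replicate 3, the shallowest of that group at 1747533 counts, was highest for Rplp1 (3563 CPM), Rpl7 (2050.3 CPM), Rpl39 (2029.7 CPM), Rpl31 (1948 CPM), Rpl22 (1604 CPM) and Rps20 (1053 CPM), and replicate 1 for Rps18 (11379 CPM). The part of sequencing depth in these values was not tested.

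The effect of the knockout differed from that of shYAP, by the test of the difference itself, in 23 members, of which 16 are given here. On the log2 scale the difference, knockout minus shYAP effect, was 1.28 for Rpl17, 1.196 for Rpl35, 0.76 for Rpl36a, 0.76 for Rps18, 0.61 for Rpl22l1, 0.50 for Rpl3 and 0.47 for Rps14. It was -1.18 for Rpl31, -0.69 for Rps2, -0.68 for Rps23, -0.65 for Rpl12, -0.61 for Rplp1, -0.55 for Rpl8, -0.52 for Rpl15, -0.42 for Rpsa and -0.39 for Rplp0. The knockout effect is the mean of 2 clones that often differed. Against Scrambled, Rpl17, Rpl35 and Rps14 were called in clone2 only, and Rplp1 and Rplp0 in clone1 only.

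Without the 11 libraries with many counts on copies, 5 of these 16 were not past the threshold: Rpl36a at 0.09 (adjusted p = 0.715), Rpl22l1 at 0.35 (adjusted p = 0.0755), Rpl12 at -0.32 (adjusted p = 0.161), Rpl15 at -0.27 (adjusted p = 0.123) and Rpsa at -0.37 (adjusted p = 0.0719). The others were past it, with 0.48 for Rpl17, 0.32 for Rpl35, 0.65 for Rps18, 0.41 for Rpl3, 0.53 for Rps14, -1.26 for Rpl31, -1.18 for Rps2, -0.68 for Rps23, -0.88 for Rplp1, -0.66 for Rpl8 and -0.42 for Rplp0. With copies added, Rpl36a, Rps23, Rpl12, Rpl15 and Rpsa were not past it. Over 22 alternatives Rpl36a was not past it in 18, Rpsa in 15, Rps2 in 13, Rpl35 in 8, Rpl22l1 in 7 and Rplp1 in 6, and Rpl17, Rpl31 and Rps18 were past it in each.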

How the results depend on the processing

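Counts are members past the threshold of 80 tested. They stayed within 1.5 times under size factors as in DESeq2, the library total, TMM without the members, no filter on low counts, DESeq2 and limma. At a threshold of 0.01 clone1 against Scrambled had 9, clone2 18, Scrambled against shControl 0 and the difference of effects 8. With runs as a random block in limma there were 2 for shYAP, 3 for clone1, 0 between the controls and 7 for the difference. Replicate numbers did not pair libraries, and the replicate block gave 20 members for shYAP against shControl (6 higher, 14 lower) and moved no other count by over 1.5 times.

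A fit of all groups gave 14 for shYAP, and shControl replicates 5 to 10 alone gave 16 for shYAP and 0 between the controls. The 2 controls alone in a fit gave 0, and adding the pseudogene entries or the sequence copies gave 2. Clone1 had 31 with knockout replicates 7 to 9 alone and 30 with shControl in place of Scrambled. Settings chosen after seeing the data gave 19 for clone2 against Scrambled and 16 against clone1 with clone2 replicates 1 and 2 alone. They gave 12 for clone2 replicates 1 and 2 with shControl replicates 5 to 10 in place of Scrambled, and 37 for the difference without the 11 libraries.

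Leaving out each replicate of the groups of 3 in turn gave 2 to 4 for shYAP, 2 to 19 for clone1, 0 to 1 between the controls and 9 to 23 for the difference. Without Scrambled replicate 2, 2 passed in clone1 and 9 in the difference, and without shYAP replicate 1 or 2, 13 or 12 did in the difference.

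Among members named by rule, direction reversed in 8 cases, whose cause was not tested. Over all calls, the direction held in 40 of 55 against clone1 and 27 of 30 against Scrambled with clone2 replicates 1 and 2 alone. With copies added it held in 28 of 30 against Scrambled and 53 of 55 against clone1. For clone2 replicates 1 and 2 with shControl replicates 5 to 10 in place of Scrambled, it held in 26 of 30. Rpl8 in clone1 was 0.034 with shControl in place of Scrambled. Rpl5 was 0.17 against Scrambled and 0.16 against clone1, and Rpl15 0.18 against clone1, in clone2 with copies added. With clone2 replicates 1 and 2 alone, Rpl10 was -0.055 against Scrambled, and Rpl15 was 0.065 and Rplp2 -0.051 against clone1. Rplp0 was -0.028 against clone1 at the library total. Depth limits the low members most, with clone1 replicate 2 at 883253 counts.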
